A study of Homo sapiens with 12 samples.

Results

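MG63 cells depleted of LARP4A were compared directly with MG63 cells depleted of LARP4B, with no control library in the contrast. The members are 4 of the 12 libraries of the study: 2 of MG63 transfected with siRNA against LARP4A (siLARP4A) and 2 of MG63 transfected with siRNA against LARP4B (siLARP4B). MG63 is a human osteosarcoma line; the labels call it wild type, and it received 10 nM siRNA with a lipid reagent 72 h before poly(A) RNA was taken. The other libraries are 2 of MG63 with a non-targeting siRNA (siControl) and 2 for each of the same siRNAs in PC3, a human prostate carcinoma line. The number and the sequence of the siRNAs per target are not given in the sources used here, so effects of a siRNA beyond its target cannot be told apart from those of the target. For each gene symbol on chromosomes 1 to 22 and X, 1 transcript model stood for the gene, the one with the largest fragment count summed across the series, which gave 28163 symbols, of which 16066 passed the filter on low counts and were tested.

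LARP4A (gene symbol LARP4) and LARP4B are La-related proteins of the cytoplasm that bind mRNA, poly(A) tails and the poly(A)-binding protein, and both are known to stabilise mRNAs or favour their translation. They arose from a common ancestral gene and differ in the RNA sequences they prefer. The series asks what each of them contributes to the behaviour of prostate cancer and osteosarcoma cells, and the direct contrast asks which transcripts separate loss of the one from loss of the other.

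Library totals of the 4 members were between 17473390 and 19595860 fragments. The study's design text describes 2 biological replicates per group without saying how the cultures were separated, so p-values measure the spread between these samples. The chi-square of replicate counts per degree of freedom, near 1 for counting error alone, was 2.04 in siLARP4A and 5.05 in siLARP4B over genes at 1 locus, so the siLARP4B libraries were less alike than the siLARP4A libraries. Markers of the osteosarcoma and mesenchymal type summed to 5759 to 6309 FPKM (fragments per kilobase of model, scaled to the library total) over the MG63 libraries, against 469.8 to 583.7 in PC3. By number the lines were closer, with 9 or 10 of the 12 at 1 FPKM or more in the MG63 groups and 8 in each PC3 group. Epithelial markers summed to 64.34 to 87.25 FPKM in MG63 and 1213 to 1484 in PC3, with 4 of 16 above 1 FPKM in MG63, the keratins KRT7, KRT8, KRT18 and KRT19. In MG63 the epithelial sum was 83.68 and 85.91 in siLARP4A and 64.34 and 66.32 in siLARP4B.

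Each siRNA lowered its own target and not the other. LARP4 (chr12:50400885-50480004, hg38) stood at 2.11 and 2.19 FPKM in siLARP4A, 10.6 and 11.5 in siLARP4B and 8.18 and 8.5 in siControl. In siLARP4A 25.76% of its control level was left. LARP4B (chr10:806914-931705) stood at 6.95 and 7.04 FPKM in siLARP4A, 1.89 and 2.2 in siLARP4B and 6.64 and 6.78 in siControl, and 30.51% of the control level was left in siLARP4B. LARP4 itself was higher in siLARP4B than in siControl, by 0.43 on the log2 scale (adjusted p = 8.8e-05, edgeR quasi-likelihood F-test with Benjamini-Hochberg adjustment, as for every adjusted p below), whereas LARP4B differed from control in siLARP4A by a log2 value of 0.06 (adjusted p = 0.54).

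Of the 16066 genes, 6671 (41.5%) differed between the knockdowns at an adjusted p of 0.05. In siLARP4A 3272 (20.4%) were higher than in siLARP4B and 3399 (21.2%) were lower. FPKM ranges of the groups did not overlap for 69.5% of genes. A difference of at least 2-fold was called for 640 genes higher (3.98%) and 226 lower (1.41%) in siLARP4A, but 350 of the former and 80 of the latter had under 1 FPKM in both groups. With genes restricted to a mean of at least 5 FPKM, 99 genes were at least 2-fold higher and 60 at least 2-fold lower. Against siControl, 3998 genes (24.9%) were called in siLARP4A and 5238 (32.6%) in siLARP4B; these comparisons share the control libraries. Of the genes named here, LARP7, SQSTM1, IRF3, ERAP1, ACTA2, FGF7, GALNT7, COL3A1, COL5A1, TOP1, MYL9, TNFAIP3, SLC7A11, MMP1, ITGA6, PSME1, SEC61A1, NDUFB2, SMAD5, BCL2L1, BBC3, DCP2, SPARC, KRT7, KRT8, KRT18, FOXC2 and ADAMTS19 overlap another gene on the other strand, and their values carry that limit.

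Among genes at 1 locus with at least 5 FPKM, the largest differences in favour of siLARP4A included ADGRG1, MKNK2, TLNRD1 and ARSI. ADGRG1, an adhesion G protein-coupled receptor, stood at 8.95 and 9.03 FPKM in siLARP4A, 1.85 and 1.54 in siLARP4B and 3.97 and 4.12 in siControl (log2 between knockdowns 2.38 ± 0.09 SE, adjusted p = 6.1e-11). Control libraries lay between the knockdowns, and the siRNAs moved ADGRG1 to opposite sides of control (log2 1.15 in siLARP4A and -1.23 in siLARP4B). MKNK2, a kinase that phosphorylates the cap-binding protein eIF4E, stood at 24.6 and 25.3 FPKM in siLARP4A and 5.43 and 4.76 in siLARP4B, with control at 13.2 and 13.8. TLNRD1, an actin-bundling protein, and ARSI, a sulfatase, were also on opposite sides of control, with log2 differences between knockdowns of 2.21 and 2.06.

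HIPK3, a homeodomain-interacting kinase, was separated mainly by its loss in siLARP4B. HIPK3 FPKM was 6.9 and 6.52 in siLARP4A, 1.4 and 1.87 in siLARP4B and 5.24 and 5.08 in siControl (log2 between knockdowns 2.02 ± 0.10 SE). DPYSL3, a cytoskeletal regulator of the collapsin response mediator family, stood at 80 and 81.4 FPKM in siLARP4A, 23.3 and 21.9 in siLARP4B and 55.9 and 56 in siControl (log2 1.82 ± 0.05 SE). KCNN4, a calcium-activated potassium channel, stood at 6.17 and 6.64 FPKM in siLARP4A and 1.91 and 1.95 in siLARP4B. GALNT7, which starts or extends O-linked glycans, stood at 20.4 and 21.8 against 6.59 and 6.33. Neither KCNN4 (log2 0.17, adjusted p = 0.26) nor GALNT7 (log2 0.16, adjusted p = 0.098) passed the test between siLARP4A and siControl, while both were lower than control in siLARP4B, with log2 values of -1.54 and -1.53.

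At the other end, LARP4 was followed by interferon genes, HMOX1, TNFRSF11B and TMED5. HMOX1 (chr22:35381096-35394207), the inducible haem oxygenase, stood at 7.7 and 7.31 FPKM in siLARP4A, 27 and 26.4 in siLARP4B and 5.97 and 4.95 in siControl. The log2 difference of HMOX1 was -1.85 ± 0.08 SE (adjusted p = 1.4e-10), and both siRNA groups were above control. TNFRSF11B, osteoprotegerin, the decoy receptor that restrains osteoclast formation, stood at 22.5 and 24.2 FPKM in siLARP4A, 74.5 and 83.9 in siLARP4B and 60.8 and 56.9 in siControl (log2 -1.78 ± 0.09 SE). TMED5, a carrier of early secretory traffic, stood at 4.44 and 4.64 against 15.5 and 15.3, with control at 10.3 and 9.79. FGF7, a fibroblast growth factor, stood at 2.81 and 2.62 FPKM in siLARP4A, 8.11 and 8.26 in siLARP4B and 5.06 and 5.35 in siControl. OSTM1, a partner of a lysosomal chloride transporter, stood at 6.31 and 5.93 against 17.9 and 18.3, with control at 9.67 and 10.2. TNFRSF11B, TMED5, FGF7 and OSTM1 were each below control in siLARP4A and above it in siLARP4B, the mirror image of ADGRG1.

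**Figure D1:**
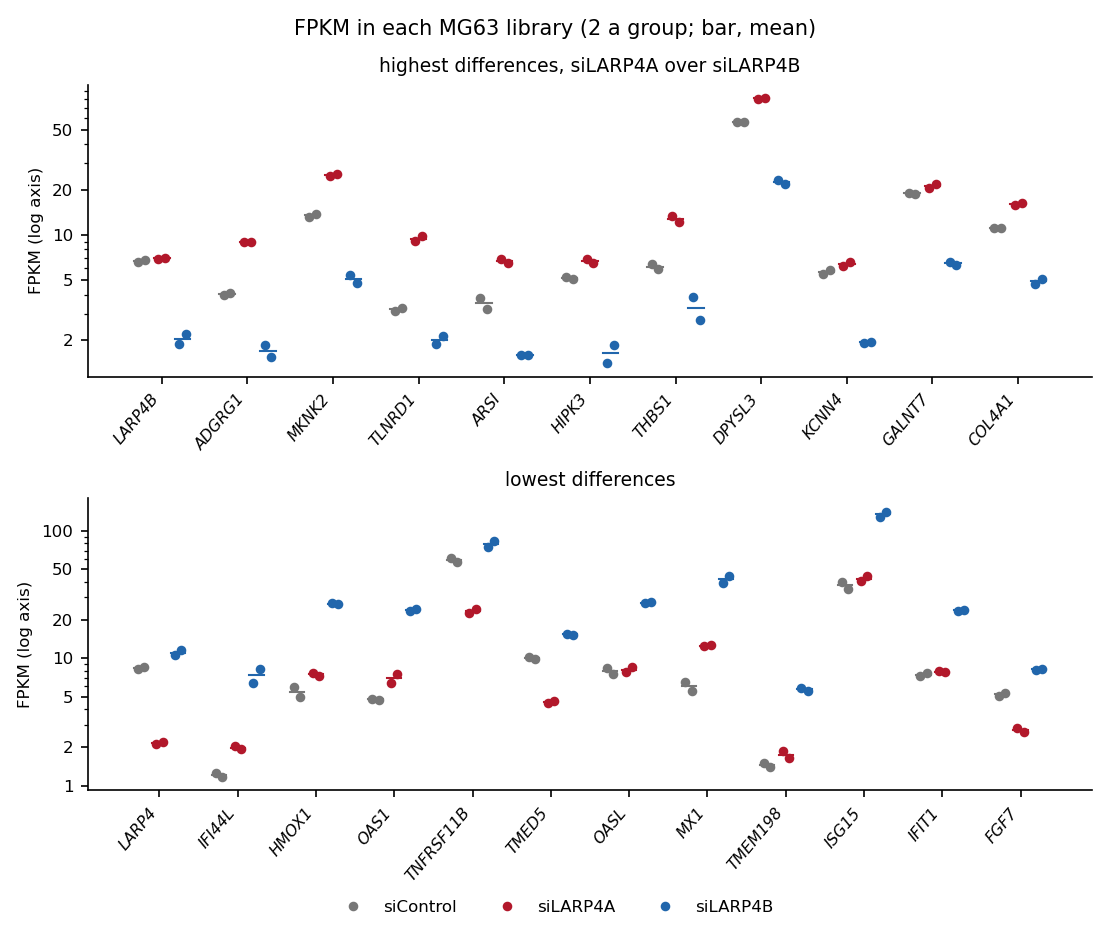
FPKM on a log axis in each MG63 library for genes with the highest and the lowest log2 differences between siLARP4A and siLARP4B (points, 2 libraries a group; short bars, group means; grey, siControl; red, siLARP4A; blue, siLARP4B). ADGRG1 stands at 8.95 and 9.03 FPKM in siLARP4A and 1.85 and 1.54 in siLARP4B. The genes shown were chosen among those whose FPKM ranges do not overlap between the knockdowns, which holds for 69.5% of all genes tested.

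Among abundant genes with at least a 2-fold difference, ASPH, an aspartyl hydroxylase of the endoplasmic reticulum, stood at 170 and 168 FPKM in siLARP4A, 68 and 69.8 in siLARP4B and 110 and 114 in siControl. TOP1, DNA topoisomerase I, went the other way at 37.3 and 37.8 FPKM in siLARP4A, 98.3 and 102 in siLARP4B and 58 and 60.6 in siControl (log2 -1.44 ± 0.05 SE). The immediate early gene JUNB stood at 123 and 122 FPKM against 58.8 and 53.8, and the metallothionein MT1E at 111 and 99.5 against 51.6 and 46.6. CYBRD1, a ferric reductase of the plasma membrane, was the reverse at 42.7 and 38.2 in siLARP4A and 84.5 and 80.6 in siLARP4B.

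In 31 lists of genes grouped by pathway, the share of members higher ranged from 0% to 80% (20.4% of all genes tested), and the share lower from 0% to 85% (21.2%). The interferon effectors, cholesterol synthesis, respiratory chain and mitochondrial ribosome lists were mostly lower in siLARP4A than in siLARP4B. The ATF4 targets, integrins and laminins, NF-kB targets, BCL2 family, growth factors and cytokine receptors had more than 50% of members higher in siLARP4A. Each list is described by its counts and its median log2 difference, set against a median of 0.005 over all genes tested. No test of a list was made. Shares also moved with level, taken as the larger group mean. Of all genes, 3.3% were lower at under 1 FPKM and 26.2% at 5 to 20 FPKM. At 20 to 100 FPKM 42.6% were lower, and from 100 FPKM up 46.1%. A mean of at least 5 FPKM was reached by 69 of 70 respiratory chain and 73 of 77 mitochondrial ribosome genes. It was reached by 82 of 84 cytosolic ribosome and 40 of 45 G1/S genes. The part of level in these counts was not tested.

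**Figure D2:**
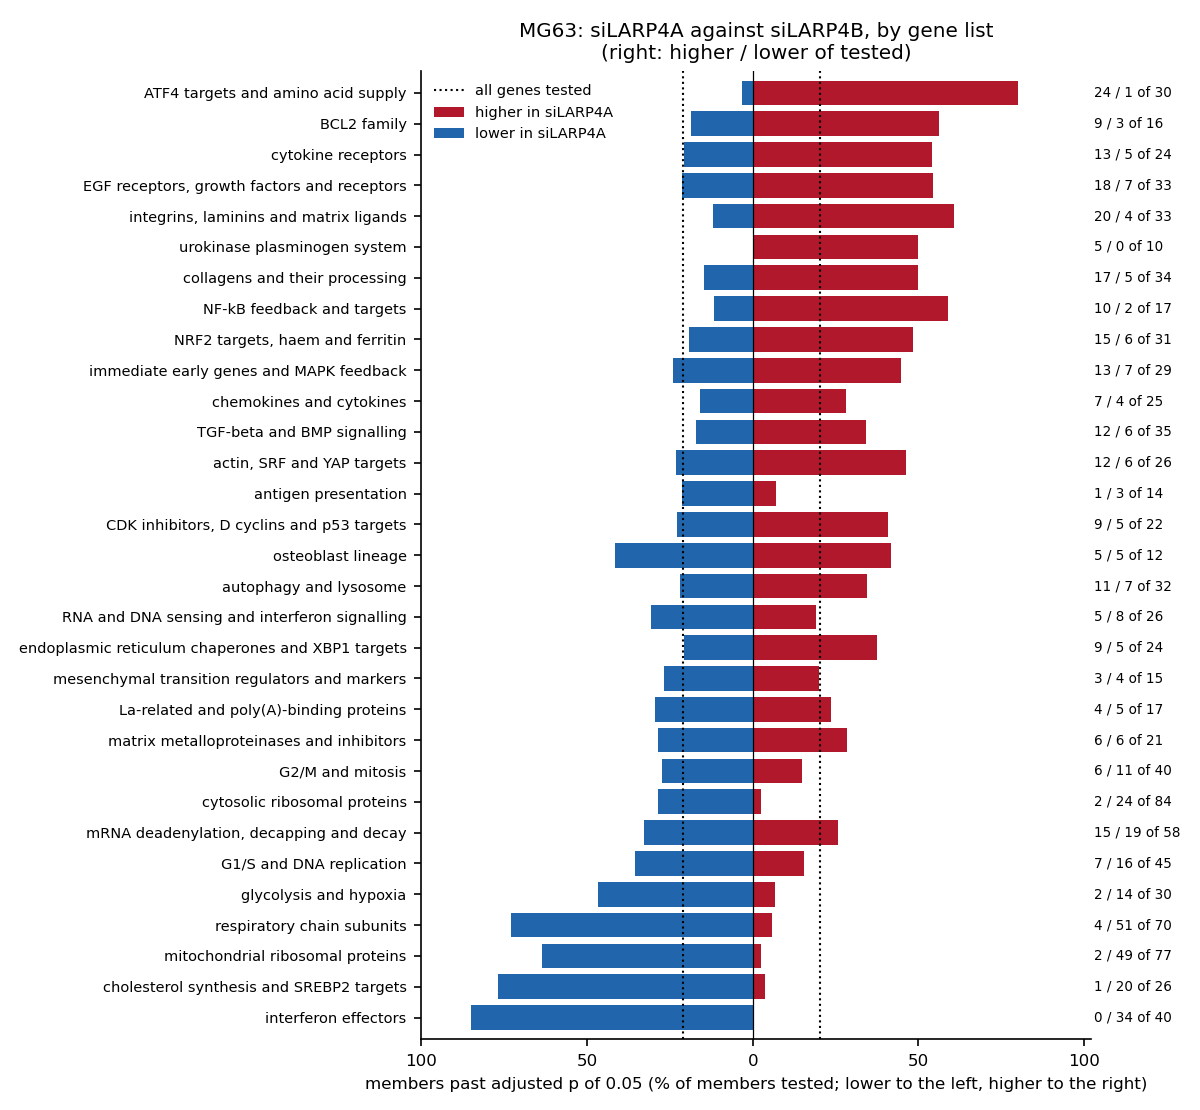
Share of each list's tested members that were higher (red, to the right) or lower (blue, to the left) in MG63 siLARP4A than in siLARP4B at an adjusted p of 0.05, with dotted lines at the shares over all genes tested (20.4% higher, 21.2% lower). Interferon effectors had 34 of 40 members lower and 0 higher, and the ATF4 targets 24 of 30 higher and 1 lower.

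Interferon-stimulated genes are switched on when interferon receptors activate a complex that holds STAT2 and IRF9, which binds a promoter element built of paired GAAA blocks, or when IRF3 binds the same element downstream of RNA and DNA sensors. Among the 40 interferon effectors, 34 were lower in siLARP4A than in siLARP4B and 0 were higher, with a median log2 difference of -0.93; 14 differed at least 2-fold. By FPKM, 37 of 40 had non-overlapping ranges with siLARP4A below, against 5219 of all 16066 genes tested. The remaining 6, not called, were ISG20, IFI35, EPSTI1, RTP4, TRIM21 and LGALS3BP. Against siControl, 34 of the 40 were higher in siLARP4B (background 16.9%; median log2 1.32) and 18 in siLARP4A (background 12.4%; median log2 0.26), and none was lower in either. The FPKM of the list summed to 1245 and 1214 in siLARP4A, 1955 and 1929 in siLARP4B and 1091 and 1069 in siControl. In bulk RNA, more RNA per cell and more cells in which these genes are active cannot be told apart.

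The promoter stretches of 4 strongly separated effectors are printed because each holds an interferon-type element, GAAA followed by 2 bases of any kind and again GAAA, shown in capitals (either strand; overlapping matches run together). They come from RefSeq (GRCh38.p14), are read 5′ to 3′ on the gene's strand and lie upstream of the annotated start, at chr1:1013369-1013414 (plus strand) for ISG15, chr1:78620269-78620399 (plus) for IFI44L, chr1:27672261-27672363 (minus) for IFI6 and chr10:89392492-89392544 (plus) for IFIT1.
ISG15: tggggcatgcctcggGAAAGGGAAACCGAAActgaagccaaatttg
IFI44L: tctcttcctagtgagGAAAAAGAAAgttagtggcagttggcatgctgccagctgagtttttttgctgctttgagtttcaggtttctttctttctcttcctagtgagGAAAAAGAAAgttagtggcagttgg
IFI6: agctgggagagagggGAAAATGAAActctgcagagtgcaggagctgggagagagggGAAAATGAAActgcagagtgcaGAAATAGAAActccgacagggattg
IFIT1: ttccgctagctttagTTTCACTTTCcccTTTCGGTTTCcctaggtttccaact
Over the windows from 250 bases before to 50 after the start, this element was found on either strand in 23 of the 32 interferon effectors with a RefSeq entry (71.9%) and in 3.65% of all 27305 promoters searched. ISG15, IFI44L and IFIT1 hold 2 matches each in the printed stretch and IFI6 holds 3. The element did not mark the separated genes alone. OAS1, also strongly separated, held 0 matches, and MX1 held 1, downstream of the start. Of the effectors not called, ISG20, EPSTI1, RTP4, TRIM21 and LGALS3BP held the element and IFI35 did not.

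ISG15, the ubiquitin-like modifier, stood at 40.3 and 44 FPKM in siLARP4A, 128 and 142 in siLARP4B and 39.8 and 34.9 in siControl (log2 between knockdowns -1.69 ± 0.08 SE, adjusted p = 6.1e-10). The siLARP4A libraries were close to control (log2 0.18, adjusted p = 0.16), and the siLARP4B libraries were higher than siLARP4A by a fold of 3.23. IFI44L, a feedback regulator of antiviral signalling, stood at 2.03 and 1.92 FPKM in siLARP4A and 6.44 and 8.29 in siLARP4B (log2 -1.91 ± 0.13 SE). IFIT1, which binds viral RNA ends, stood at 7.88 and 7.78 against 23.7 and 24.1 (log2 -1.63 ± 0.08 SE). IFI6, an inhibitor of viral replication at the endoplasmic reticulum, stood at 61.1 and 59.7 FPKM in siLARP4A, 135 and 146 in siLARP4B and 42.2 and 38.8 in siControl. Unlike ISG15, IFI6 passed the test above control in siLARP4A too (log2 0.58, adjusted p = 0.0005).

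The enzymes that make the second messenger of RNase L behaved alike in direction. OAS1 stood at 6.39 and 7.53 FPKM in siLARP4A and 23.6 and 24.4 in siLARP4B (log2 -1.80 ± 0.10 SE), and the related OASL at 7.82 and 8.47 against 27 and 27.7 (log2 -1.76 ± 0.07 SE). MX1, a dynamin-like GTPase that blocks viral ribonucleoproteins, stood at 12.4 and 12.7 FPKM in siLARP4A, 39.3 and 44.4 in siLARP4B and 6.56 and 5.58 in siControl. MX1 was above control in both knockdowns (log2 1.05 in siLARP4A and 2.80 in siLARP4B), whereas OASL in siLARP4A differed from control by a log2 value of 0.04 (adjusted p = 0.79). IFI27 and LY6E, also among the 34, have models at 2 loci each, and the count without such symbols was 32. IFI27 lost its call when siLARP4A replicate 1 (log2 -1.01, adjusted p = 0.079), siLARP4A replicate 2 (log2 -0.60, adjusted p = 0.29) or siLARP4B replicate 1 (log2 -0.36, adjusted p = 0.49) was left out.

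Sensors upstream of interferon were more mixed. Of 26 tested members, 8 were lower in siLARP4A (30.8%, against 21.2% of all genes) and 5 higher (19.2%, against 20.4%). The median log2 difference was 0.05. The 5 higher were MAVS, TICAM1, STING1, TBK1 and SOCS1, while DDX58, IFIH1, IRF3 and STAT2, described next, are among the 8 lower. Of the cytoplasmic RNA sensors, RIG-I (listed as DDX58) stood at 3.51 and 4.16 FPKM in siLARP4A, 8.4 and 9.61 in siLARP4B and 2.09 and 1.99 in siControl, and MDA5 (IFIH1) at 3.5 and 3.26 against 7.92 and 9.16. The log2 differences were -1.25 ± 0.10 SE for DDX58 and -1.35 ± 0.11 SE for IFIH1. IRF3, the transcription factor downstream of the sensors, stood at 14.8 and 15.5 FPKM in siLARP4A, 30.2 and 27.5 in siLARP4B and 21.4 and 19.2 in siControl, on opposite sides of control. IRF3 overlaps BCL2L12 on the other strand, and the counting of strand is not given in the sources used here, so reads of such pairs cannot be told apart. STAT2 stood at 4.64 and 5.36 against 8.91 and 8.9. The interferon genes IFNB1 and IFNL1 did not pass the filter on low counts.

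Of 14 antigen presentation genes tested, 3 were lower (21.4%) and 1 was higher (7.14%) in siLARP4A, a lower share near that of all genes and a higher share below it. The proteasome activator subunits PSME1 (61.4 and 59.6 FPKM in siLARP4A against 84.8 and 81.1 in siLARP4B) and PSME2 (78.7 and 86.2 against 109 and 108) were lower. ERAP1, which trims peptides, was higher at 19.2 and 19.6 FPKM against 9.62 and 10.3, although it overlaps CAST on the other strand. B2M, TAP2 and TAPBP have models at several loci and were not called, and their counts are uncertain for that reason.

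**Figure D3:**
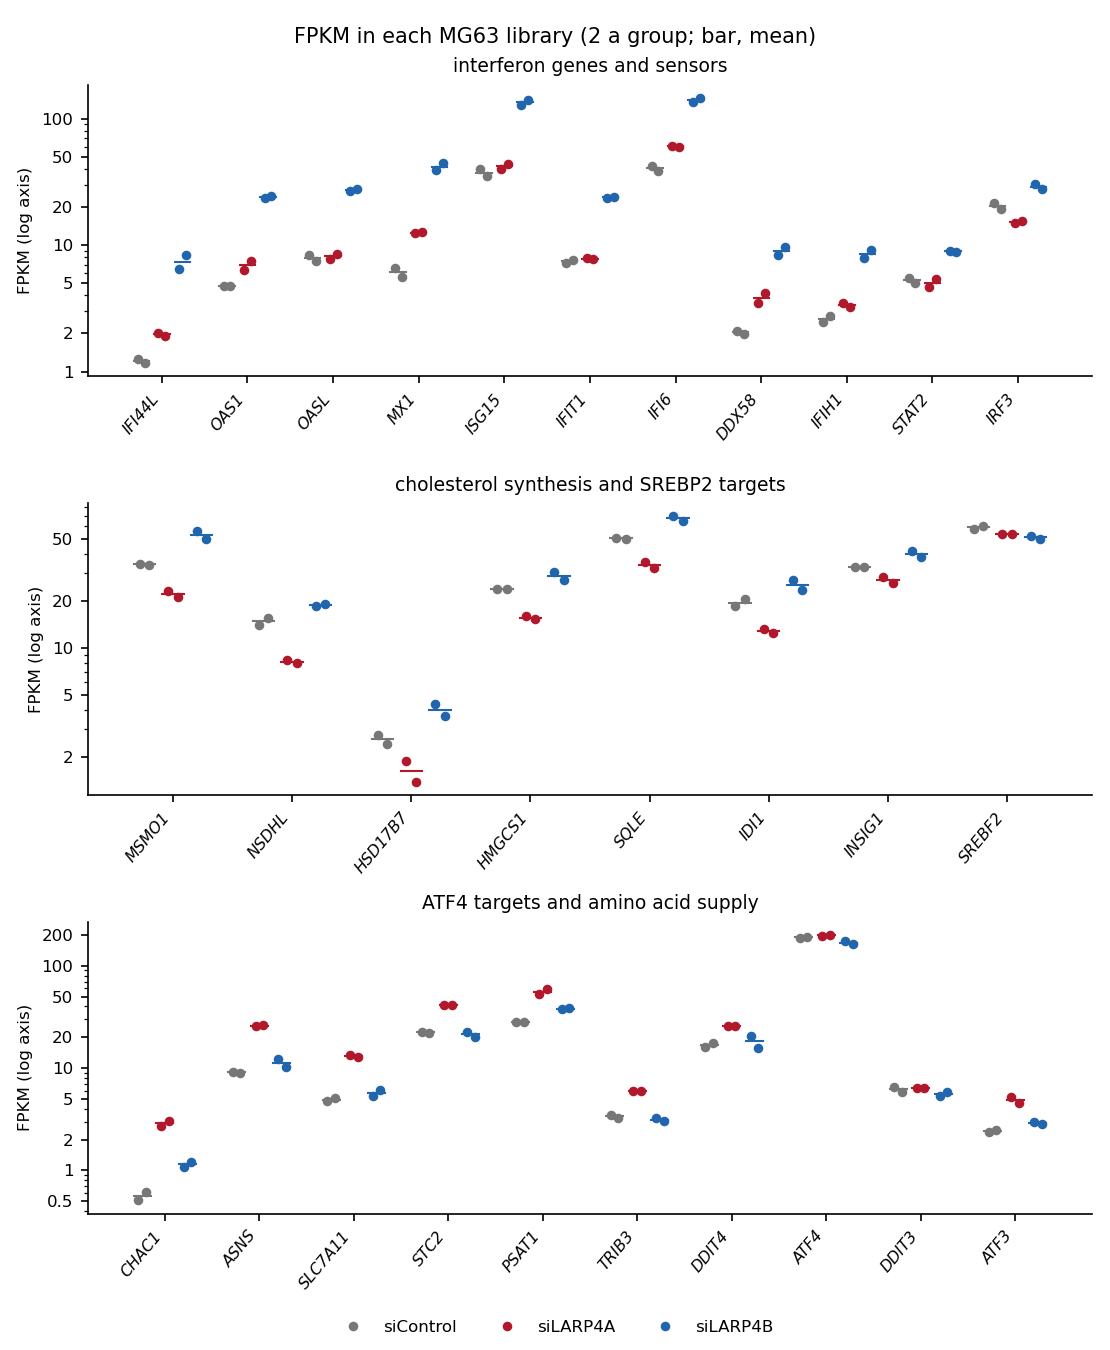
FPKM on a log axis in each MG63 library for genes of the interferon and sensing, cholesterol and ATF4 lists (points, 2 libraries a group; short bars, means; grey, siControl; red, siLARP4A; blue, siLARP4B). ISG15 stands near 40 FPKM in siControl and siLARP4A and at 128 and 142 in siLARP4B, MSMO1 is lowest in siLARP4A, and ASNS is highest in siLARP4A.

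Cholesterol is made from acetyl-CoA by a chain of enzymes in the endoplasmic reticulum whose genes are switched on together by SREBP2, with the CCAAT-binding factor NF-Y as a partner on their promoters. Of 26 genes of this list tested, 20 were lower in siLARP4A than in siLARP4B and 1 was higher, with a median log2 difference of -0.67; 7 were at least 2-fold lower. Against siControl, 19 were lower and 0 higher in siLARP4A (background 12.5% lower; median log2 -0.56), and 11 were higher and 4 lower in siLARP4B (background 16.9% higher, 15.7% lower; median log2 0.13). The FPKM of the list summed to 681.4 and 668.8 in siLARP4A, 1086 and 996.5 in siLARP4B and 976.5 and 971.2 in siControl. SREBF2 and LSS, the latter with models at several loci, were among the 5 not called. Within siLARP4B, 23 of 26 members were higher in replicate 1 than in replicate 2, by a median log2 value of 0.11, and the count of members lower was 19 to 20 with any of the 4 libraries left out.

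Promoter stretches of 3 enzymes are printed because the CCAAT pentamer recurs in them (capitals, either strand; where matches adjoin they run together). They are from RefSeq (GRCh38.p14), upstream of the start, at chr4:165327469-165327654 (plus strand) for MSMO1, chrX:152830820-152830998 (plus) for NSDHL and chr5:43313493-43313582 (minus) for HMGCS1.
MSMO1: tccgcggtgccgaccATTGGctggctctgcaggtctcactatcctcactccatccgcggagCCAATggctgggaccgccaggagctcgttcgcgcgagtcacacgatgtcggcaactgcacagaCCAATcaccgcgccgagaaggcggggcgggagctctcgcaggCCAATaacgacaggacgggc
NSDHL: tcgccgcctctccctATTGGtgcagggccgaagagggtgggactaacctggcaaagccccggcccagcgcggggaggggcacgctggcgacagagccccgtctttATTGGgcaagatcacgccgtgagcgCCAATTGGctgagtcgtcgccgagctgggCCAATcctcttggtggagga
HMGCS1: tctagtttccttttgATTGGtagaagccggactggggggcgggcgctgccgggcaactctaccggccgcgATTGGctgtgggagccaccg
CCAAT was found on either strand in 15 of the 19 list members with a RefSeq entry (78.9%) and in 35.7% of all promoters searched. The sterol element spelled TCACNCCAC was found in 1 of the 19 (SREBF2) and in 1.15% of all promoters. The 186 bases printed for MSMO1 hold 4 CCAAT matches and the 179 for NSDHL hold 5.

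The separation was seen at several steps of the pathway. HMGCS1, which makes HMG-CoA, stood at 15.9 and 15.2 FPKM in siLARP4A, 30.4 and 27 in siLARP4B and 23.6 and 23.9 in siControl. HMGCS1 thus lay below control in siLARP4A and above it in siLARP4B. SQLE, squalene epoxidase, stood at 35.4 and 32.4 FPKM in siLARP4A and 69.3 and 65.2 in siLARP4B, and IDI1, isopentenyl diphosphate isomerase, at 13.1 and 12.4 against 27.1 and 23.4. MSMO1, the sterol C4-methyl oxidase, stood at 23.1 and 21.1 against 56.1 and 49.7 (log2 -1.28 ± 0.08 SE, adjusted p = 5.1e-09), and NSDHL, its partner dehydrogenase, at 8.29 and 7.96 against 18.4 and 19 (log2 -1.22 ± 0.08 SE).

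Farnesyl-level enzymes differed from this pattern on the side of siLARP4B. FDPS, farnesyl diphosphate synthase, stood at 107 and 103 FPKM in siLARP4A, 174 and 154 in siLARP4B and 181 and 177 in siControl, and FDFT1, squalene synthase, at 55.7 and 54.5, 95.8 and 86.4, and 104 and 99.8. For these genes the siLARP4A libraries lay below both other groups. SREBF2, which encodes SREBP2, stood at 53.8 and 53.3 against 52.2 and 50 (log2 0.05, adjusted p = 0.33), and SREBF1 was the 1 member higher in siLARP4A (38.8 and 39 against 31.9 and 27.8 FPKM; log2 0.36).

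ATF4 is a transcription factor whose translation rises when eIF2 alpha is phosphorylated, and its targets serve amino acid import, amino acid synthesis and stress responses. Of 30 genes in this list, 24 were higher in siLARP4A than in siLARP4B and 1 was lower, with a median log2 difference of 0.54. Against siControl, 21 were higher and 1 lower in siLARP4A (background 12.4% and 12.5%; median log2 0.49), and 7 were higher and 8 lower in siLARP4B (background 16.9% and 15.7%; median log2 -0.01). The list summed to 1861 and 1890 FPKM in siLARP4A, 1470 and 1367 in siLARP4B and 1365 and 1375 in siControl.

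The matches to the ATF4-type element TGATGNAA in ASNS and CHAC1 are printed as the members of this list with the largest differences that hold it. They are from RefSeq (GRCh38.p14), at chr7:97872454-97872491 (minus strand) and chr15:40953247-40953284 (plus), upstream of the start, with the match in capitals.
ASNS: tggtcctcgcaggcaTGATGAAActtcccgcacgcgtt
CHAC1: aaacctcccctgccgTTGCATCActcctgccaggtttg
TGATGNAA was found on either strand in 7 of the 24 list members with a RefSeq entry (29.2%) and in 3.67% of all promoters searched.

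ASNS (chr7:97852117-97872542), asparagine synthetase, stood at 25.5 and 26.2 FPKM in siLARP4A, 12.4 and 10.2 in siLARP4B and 9.17 and 9.04 in siControl (log2 1.17 ± 0.08 SE, adjusted p = 1.5e-08); a readthrough gene, CZ1P-ASNS, overlaps it on the same strand. CHAC1, which degrades glutathione, stood at 2.71 and 3.05 FPKM in siLARP4A, 1.07 and 1.22 in siLARP4B and 0.509 and 0.62 in siControl (log2 1.31 ± 0.19 SE). Both genes were above control in both knockdowns and highest in siLARP4A. PHGDH, the entry enzyme of serine synthesis, stood at 212 and 219 FPKM in siLARP4A, 122 and 108 in siLARP4B and 126 and 130 in siControl, and PSAT1, the next enzyme, at 52.8 and 58.6, 37.7 and 38.3, and 28 and 28.4. SLC7A11, the cystine importer, stood at 13.4 and 12.8 against 5.35 and 6.07 (log2 1.18 ± 0.08 SE), and STC2, a secreted glycoprotein, at 41 and 41.2 against 22.4 and 20.3 (log2 0.93 ± 0.05 SE). TRIB3, a pseudokinase target of ATF4, stood at 6.03 and 5.91 FPKM against 3.24 and 3.01.

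The mRNA of ATF4 itself differed little, at 197 and 200 FPKM in siLARP4A and 172 and 162 in siLARP4B (log2 0.23, adjusted p = 0.00082). DDIT3, which encodes CHOP, did not pass the test at 6.32 and 6.45 against 5.29 and 5.85 FPKM (adjusted p = 0.26). PYCR1, a proline synthesis enzyme, was the 1 member lower in siLARP4A, at 48.1 and 50.4 against 63.4 and 56.5. Chaperones and XBP1 targets of the endoplasmic reticulum, which belong to the unfolded protein response, had 9 of 24 higher and 5 lower, with a median of 0.04. These are 37.5% and 20.8%, against 20.4% and 21.2% of all genes. SEC61A1, the translocon channel, was higher (264 and 255 against 163 and 151 FPKM), and the chaperone CANX was lower (222 and 227 against 365 and 381).

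NRF2 targets and haem and ferritin genes had 15 of 31 members higher (48.4%, against 20.4% of all genes) and 6 lower (19.4%, against 21.2%) in siLARP4A. TXNRD1, thioredoxin reductase, stood at 101 and 99.4 FPKM in siLARP4A, 48.2 and 48.5 in siLARP4B and 75.5 and 76.1 in siControl (log2 1.03 ± 0.04 SE). ABCC3, an export pump, stood at 3.69 and 3.78 against 0.986 and 0.754 (log2 2.08 ± 0.12 SE). HMOX1, of the same list, was separated in the opposite direction, as given above, so the list did not move as 1 block.

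Extracellular matrix proteins and the integrins that bind them set how an osteosarcoma cell attaches and migrates. Of 33 integrins, laminins and matrix ligands, 20 were higher in siLARP4A than in siLARP4B and 4 were lower, with a median log2 difference of 0.40. Against siControl, 19 were higher and 3 lower in siLARP4A (background 12.4% and 12.5%), and 7 were higher and 10 lower in siLARP4B (background 16.9% and 15.7%). THBS1, thrombospondin 1, stood at 13.3 and 12.2 FPKM in siLARP4A, 3.85 and 2.7 in siLARP4B and 6.39 and 5.92 in siControl (log2 1.94 ± 0.11 SE, adjusted p = 4.0e-09). ITGA2, a collagen-binding integrin chain, stood at 4.35 and 4.2 against 1.31 and 1.55 (log2 1.56 ± 0.10 SE), and ITGA11, another, at 7.32 and 7.18 against 3.27 and 2.77 (log2 1.25 ± 0.09 SE). ITGA6, a laminin-binding chain, stood at 15.1 and 13.9 FPKM in siLARP4A, 7.08 and 7.79 in siLARP4B and 13.3 and 13.1 in siControl. Among the abundant chains, ITGB1 stood at 378 and 375 against 307 and 306 FPKM (log2 0.28), and ITGA5, the fibronectin receptor chain, did not pass the test at 114 and 114 against 111 and 108 (adjusted p = 0.42). The 4 lower in siLARP4A were LAMA4, LAMA5, TNC and SPARC, the last a collagen-binding glycoprotein with a log2 difference of -0.39.

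Of 34 collagens and collagen-processing genes, 17 were higher in siLARP4A and 5 were lower, with a median of 0.30. COL1A1, the main chain of bone collagen, stood at 1337 and 1295 FPKM in siLARP4A, 787 and 719 in siLARP4B and 744 and 745 in siControl (log2 0.79 ± 0.05 SE, adjusted p = 1.6e-08), and its partner COL1A2 at 660 and 634 against 435 and 379. COL5A1, which nucleates fibrils, stood at 126 and 120 FPKM in siLARP4A, 58.4 and 52.7 in siLARP4B and 73.1 and 73.7 in siControl (log2 1.12 ± 0.05 SE). The basement membrane chain COL4A1 stood at 15.8 and 16.2 FPKM in siLARP4A, 4.71 and 5.12 in siLARP4B and 11.1 and 11 in siControl (log2 1.69 ± 0.07 SE), while COL4A2, which pairs with it, stood at 29.4 and 29.6 against 22.9 and 21.9 (log2 0.38). COL3A1 went the other way at 714 and 628 against 931 and 852 FPKM. Within siLARP4B, 29 of 34 list members were higher in replicate 1 than in replicate 2, by a median log2 value of 0.12. With any of the 4 libraries left out, 16 to 18 collagen genes were higher.

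The urokinase system, which activates plasmin at the cell surface, had 5 of 10 members higher and 0 lower in siLARP4A. SERPINE2, an inhibitor of serine proteases of this system, stood at 84.3 and 81.2 FPKM in siLARP4A, 35.2 and 33.6 in siLARP4B and 54.8 and 54.9 in siControl (log2 1.25 ± 0.05 SE). The urokinase receptor PLAUR stood at 16.8 and 14.4 against 9.96 and 9.77. ANXA2, a plasminogen receptor and one of the most abundant transcripts here, stood at 924 and 980 FPKM in siLARP4A, 475 and 476 in siLARP4B and 877 and 870 in siControl. ANXA2 lay on opposite sides of control, by log2 values of 0.13 in siLARP4A (adjusted p = 0.027) and -0.86 in siLARP4B.

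Metalloproteinases and their inhibitors were split, with 6 of 21 higher (28.6%, against 20.4% of all genes) and 6 lower (28.6%, against 21.2%). MMP14, the membrane-bound collagenase, stood at 156 and 155 FPKM in siLARP4A, 84.3 and 80.3 in siLARP4B and 96.4 and 97.8 in siControl (log2 0.90 ± 0.06 SE). MMP1, the secreted collagenase, stood at 4.27 and 4.02 against 8.72 and 9.31, with control at 13.2 and 11.8 (log2 -1.14 ± 0.12 SE). MMP1 was thus below control in both knockdowns and lowest in siLARP4A.

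Of 26 actin, SRF and YAP targets, 12 were higher (46.2%, against 20.4% of all genes) and 6 lower (23.1%, against 21.2%) in siLARP4A. MYL9, a myosin light chain, stood at 14.6 and 14.3 FPKM in siLARP4A, 8.43 and 7.71 in siLARP4B and 7.03 and 7.13 in siControl, and ACTA2, smooth muscle actin, at 24.1 and 22.6, 14.6 and 11.9, and 8.27 and 7.83. ACTA2 overlaps FAS and an antisense gene on the other strand. Of 15 regulators and markers of the mesenchymal transition, 3 were higher and 4 lower, near the shares of all genes, with a median of 0. TWIST2, a mesenchymal transcription factor, was lower in siLARP4A (38 and 37 against 52.3 and 46.8 FPKM), and CDH2, N-cadherin, was higher (10.2 and 9.93 against 7.98 and 7.67). Without siLARP4A replicate 2 the number lower was 2. The osteoblast list had 5 of 12 tested members higher and 5 lower, and 2 higher among the 7 with a mean of at least 5 FPKM. SP7, SPP1, IBSP, DLX5 and PTH1R, markers of mature osteoblasts, were among 9 that did not pass the filter on low counts, and POSTN, periostin, was lower in siLARP4A at 28.6 and 26.7 against 49.6 and 51.

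TGF-beta and BMP signalling genes had 12 of 35 members higher (34.3%, against 20.4% of all genes) and 6 lower (17.1%, against 21.2%). LTBP2, a latent TGF-beta binding protein family member, stood at 3.62 and 3.08 FPKM in siLARP4A and 1.44 and 1.47 in siLARP4B, and FSTL3, which binds activins, at 18.9 and 18.9 against 11.1 and 10.2. SMAD5, a BMP effector, was lower at 8.81 and 9.06 against 15.6 and 17.2, with control at 18.1 and 18.2.

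NF-kB feedback genes and targets had 10 of 17 members higher and 2 lower in siLARP4A, and 6 higher among the 12 with a mean of at least 5 FPKM. BIRC3, an inhibitor of apoptosis and ubiquitin ligase of this pathway, stood at 4.47 and 4.1 FPKM in siLARP4A, 1.16 and 1.23 in siLARP4B and 1.2 and 1.31 in siControl (log2 1.83 ± 0.10 SE, adjusted p = 4.0e-09). NFKBIA, the inhibitor of NF-kB, stood at 51.5 and 51.6 FPKM in siLARP4A, 25.6 and 26.2 in siLARP4B and 36.3 and 40 in siControl. TNFAIP3, the deubiquitinase A20, stood at 5.83 and 6.8 against 3.37 and 2.98, and the adhesion molecule ICAM1 at 3.18 and 3.34 against 1.7 and 1.88. In BIRC3 the siLARP4B libraries were at the control level, while NFKBIA lay on both sides of it. The interferon effectors and the NF-kB targets, both innate immune programmes, were thus mostly called in opposite directions.

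Chemokines and cytokines had 7 of 25 higher (28%, against 20.4% of all genes) and 4 lower (16%, against 21.2%). IL32 stood at 15.7 and 17.8 FPKM in siLARP4A, 5.19 and 5.99 in siLARP4B and 6.43 and 6.51 in siControl (log2 1.57 ± 0.13 SE), and IL1B at 6.67 and 6.6 against 2.04 and 2.72. CXCL10, an interferon-induced chemokine, was lower in siLARP4A at 0.779 in both libraries against 2.61 and 3.38 (log2 -1.95 ± 0.34 SE). Cytokine receptors had 13 of 24 higher and 5 lower, with the death receptor TNFRSF10A at 3.83 and 4.09 FPKM against 1.48 and 1.54, and IL31RA at 1.89 and 1.88 against 0.693 and 0.72. IL13RA2, a decoy receptor, was lower at 1.8 and 1.77 against 3.78 and 4.28, with control at 5.78 and 6.66.

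Growth factors and their receptors had 18 of 33 members higher and 7 lower in siLARP4A, with a median of 0.42; with genes restricted to a mean of at least 5 FPKM, which 18 members reached, the number higher was 9. PDGFA stood at 1.57 and 1.44 FPKM against 0.527 and 0.359, and IGFBP4, which sequesters insulin-like growth factors, at 6.57 and 5.69 against 3.08 and 2.96. HGF, hepatocyte growth factor, was lower at 33.9 and 31.5 FPKM in siLARP4A, 69.2 and 73.6 in siLARP4B and 44.9 and 47.4 in siControl (log2 -1.14 ± 0.05 SE, adjusted p = 6.2e-10), and FGFRL1, a decoy-like FGF receptor, at 35.9 and 34.3 against 80.2 and 76.6. Immediate early genes and MAPK feedback genes had 13 of 29 higher (44.8%, against 20.4% of all genes) and 7 lower (24.1%, against 21.2%). EGR1, a zinc-finger immediate early factor, stood at 32.7 and 28.7 FPKM in siLARP4A, 10.6 and 8.97 in siLARP4B and 18.4 and 16 in siControl (log2 1.63 ± 0.16 SE).

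The BCL2 family had 9 of 16 members higher and 3 lower, and the 9 included both promoters and inhibitors of apoptosis. BAK1, a pore-forming effector, stood at 8.23 and 8.76 FPKM in siLARP4A and 3.58 and 4.05 in siLARP4B, and BBC3 (PUMA), an activator, at 7.78 and 7.53 against 4.81 and 4.31. BCL2L1, which encodes the survival protein BCL-XL, stood at 29.7 and 29.9 FPKM in siLARP4A, 21 and 18.2 in siLARP4B and 29.2 and 28.2 in siControl. Of the CDK inhibitors, D cyclins and p53 targets, 9 of 22 were higher (40.9%, against 20.4% of all genes) and 5 lower (22.7%, against 21.2%). GDF15, a stress cytokine, stood at 2.58 and 1.89 FPKM against 0.255 and 0.221 (log2 3.18 ± 0.32 SE). Its values rest on 54 and 42 fragments in siLARP4A, 6 and 5 in siLARP4B and 9 and 9 in siControl. CDKN1A, which encodes p21, stood at 35 and 33.3 against 18.5 and 15.1 (log2 1.01 ± 0.09 SE), and BTG2, an antiproliferative factor, at 2.73 and 2.07 against 0.542 and 0.68.

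Mitochondrial genes were mostly lower in siLARP4A, by less than 2-fold each. Of 70 subunits of the respiratory chain and ATP synthase, 51 were lower and 4 higher, with a median log2 difference of -0.25. Of 77 mitochondrial ribosomal proteins, 49 were lower and 2 higher, with a median of -0.30. Against siControl, 33 respiratory chain genes were higher and 4 lower in siLARP4B (background 16.9% higher), and 18 were lower and 1 higher in siLARP4A (background 12.5% lower); for the mitochondrial ribosome the numbers were 35 and 2, and 23 and 0. Cytosolic ribosomal proteins had 24 of 84 lower (28.6%, against 21.2% of all genes) and 2 higher (2.38%, against 20.4%), with a median of -0.06. Over all genes, the share lower was 42.6% at 20 to 100 FPKM and 46.1% from 100 FPKM up. The number of cytosolic ribosomal proteins lower was 13 without siLARP4A replicate 1 and 14 without siLARP4B replicate 1. It was 5 with the deduplicated table of PC3 siControl replicate 2 in the fit.

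SDHD, an anchor of complex II, stood at 43.3 and 43.2 FPKM in siLARP4A, 72.9 and 72.4 in siLARP4B and 57.5 and 59.2 in siControl (log2 -0.77 ± 0.05 SE, adjusted p = 3.5e-08). SDHA, the flavoprotein of the same complex, stood at 55.6 and 53.3 against 86.9 and 79.2, and COX7C, of complex IV, at 174 and 178 against 316 and 288, though a small nucleolar RNA gene lies within COX7C. All 4 subunits of complex II were called, of which SDHC was the 1 higher in siLARP4A (7.61 and 8.01 against 6.71 and 6.6 FPKM). MRPL32, a protein of the large mitochondrial subunit, stood at 40.8 and 43.8 FPKM in siLARP4A, 77.8 and 72.8 in siLARP4B and 45 and 45 in siControl (log2 -0.85 ± 0.07 SE), and MRPL28 at 51.4 and 55.5 against 89.6 and 83.6. NDUFB2, of complex I, was higher in siLARP4A (85.7 and 83.2 against 61.9 and 51.1 FPKM).

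These lists consist of short mRNAs, and calls in the contrast moved with length. The median model length was 1003 bases for the respiratory chain, 1353 for the mitochondrial ribosome and 906 for the cytosolic ribosome, against 3206 over all genes tested. It was 5074 for collagens, 6780 for integrins and laminins, 3092 for interferon effectors, 3057 for the cholesterol list and 2438 for the ATF4 list. Among genes with at least 5 FPKM in either group, the share higher in siLARP4A went from 12.02% in the shortest of 5 length classes of equal size to 35.6% in the longest, while the share lower went from 37.46% to 23.82%. The median log2 difference went from -0.13 to 0.07 over the same classes. The part of length in the results on mitochondrial, ribosomal and matrix genes was not tested.

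**Figure D4:**
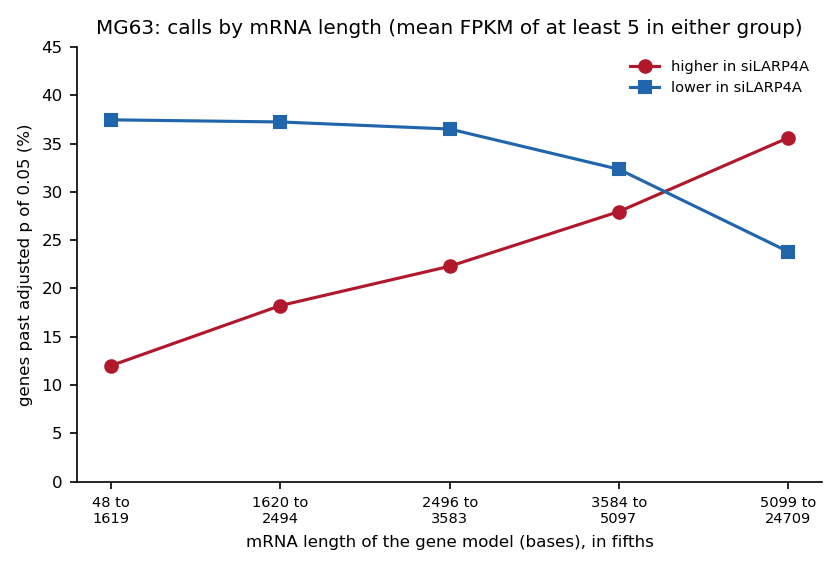
Percentage of genes called higher (red) or lower (blue) in MG63 siLARP4A than in siLARP4B by class of mRNA model length in bases, for genes with a mean of at least 5 FPKM in either group (1645 to 1647 genes a class). The share higher goes from 12.02% to 35.6% and the share lower from 37.46% to 23.82% between the shortest and the longest class.

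Cell cycle genes separated the knockdowns little in MG63. Of 45 genes of G1/S and DNA replication, 16 were lower (35.6%) and 7 higher (15.6%) in siLARP4A, with a median of -0.12. Of 40 G2/M and mitosis genes 11 were lower (27.5%) and 6 higher (15%), with a median of -0.03. Over all genes 21.2% were lower and 20.4% higher. The number of G2/M genes lower was 6 without siLARP4A replicate 1, without siLARP4A replicate 2 or without siLARP4B replicate 2. AURKA, a mitotic kinase, stood at 27.4 and 27.8 FPKM in siLARP4A, 53 and 52.9 in siLARP4B and 45.2 and 49.5 in siControl (log2 -0.96 ± 0.06 SE), whereas RACGAP1, which drives cytokinesis, was higher at 44.1 and 43.3 against 27.6 and 29.5. The G1/S activator E2F1 was higher (24.4 and 26.1 against 14.7 and 15.8 FPKM) and the repressor E2F8 lower (0.973 and 1.25 against 2.34 and 2.62). Against siControl, 33 of the 45 G1/S genes were lower in siLARP4A (background 12.5%) and 27 in siLARP4B (background 15.7%); these counts share the control libraries.

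Glycolysis and hypoxia genes had 14 of 30 members lower and 2 higher, with a median of -0.24. In this list the siLARP4B libraries differed from each other, with 28 of 30 members higher in replicate 1 by a median log2 value of 0.20. The number lower was 8 without siLARP4B replicate 1, 9 without siLARP4A replicate 2 and 21 without siLARP4B replicate 2. HK2, a hexokinase, stood at 13.9 and 12.2 FPKM in siLARP4A, 21.3 and 19.8 in siLARP4B and 21.3 and 21.6 in siControl, and PGAM1, a later glycolytic enzyme, at 161 and 157 against 234 and 210.

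Autophagy and lysosome genes had 11 of 32 higher (34.4%, against 20.4% of all genes) and 7 lower (21.9%, against 21.2%). Without siLARP4A replicate 2 the number higher was 7. The autophagy receptor SQSTM1 stood at 266 and 261 FPKM in siLARP4A, 148 and 149 in siLARP4B and 200 and 205 in siControl (log2 0.81 ± 0.04 SE), although MRNIP overlaps it on the other strand, and ATP6V1A, of the proton pump, was lower at 9.85 and 9.17 against 15.1 and 15.5.

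In a list of 17 La-related, poly(A)-binding and associated genes, which also held TOP1, 4 were higher and 5 lower, including both targets. These are 23.5% and 29.4%, against 20.4% and 21.2% of all genes. LARP7, the La-related protein of the 7SK particle, stood at 12.8 and 13.3 FPKM in siLARP4A, 7.02 and 7.53 in siLARP4B and 14.1 and 13.1 in siControl (log2 0.82 ± 0.07 SE, adjusted p = 2.6e-07), below control in siLARP4B; MIR302CHG overlaps it on the other strand. LARP1, a regulator of ribosomal protein mRNAs, was lower in siLARP4A at 59.3 and 60.3 against 68.7 and 74.5 (log2 -0.28). PABPC1, the main cytoplasmic poly(A)-binding protein, stood at 695 and 664 against 676 and 679 (log2 -0.01, adjusted p = 0.84), and RACK1 at 1232 and 1235 against 1279 and 1241 (log2 -0.05, adjusted p = 0.33).

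Of 58 genes of deadenylation, decapping and decay, 19 were lower (32.8%, against 21.2% of all genes) and 15 higher (25.9%, against 20.4%). The number lower was 11 without siLARP4A replicate 1. EXOSC3, a cap subunit of the RNA exosome, stood at 9.79 and 11.1 FPKM in siLARP4A, 3.83 and 4.12 in siLARP4B and 11.8 and 12.5 in siControl (log2 1.38 ± 0.10 SE, adjusted p = 6.2e-08). The decapping enzyme DCP2 stood at 2.06 and 2.15 against 1.21 and 1.23. TOB1, which recruits a deadenylase, was lower at 16.3 and 15.1 against 27.6 and 26.9, with control at 22 and 23.2. EXOSC3 lay below control in siLARP4B and did not pass the test against it in siLARP4A (adjusted p = 0.088).

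The same contrast in PC3 called 8303 genes (51.7%), and the difference between the lines, tested as an interaction, was called for 5647 (35.1%). The difference between siLARP4A and siLARP4B was higher in MG63 than in PC3 for 2569 genes (16%) and lower for 3078 (19.2%). For G1/S genes, 42 of 45 were higher in PC3 siLARP4A than in PC3 siLARP4B (background 25.4%; median log2 0.98) and 42 had a lower difference in MG63 by the interaction; for G2/M genes both numbers were 40 of 40 (median in PC3 1.17). Cholesterol genes had 6 of 26 higher and 9 lower in PC3, and 20 had a lower difference in MG63. ATF4 targets had 8 of 30 higher and 12 lower in PC3, and 23 had a higher difference in MG63 with 0 lower. Interferon effectors were lower in siLARP4A in PC3 too, 25 of 40 against 2 higher (background 26.3% lower), and the interaction called 9 higher and 16 lower.

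**Figure D5:**
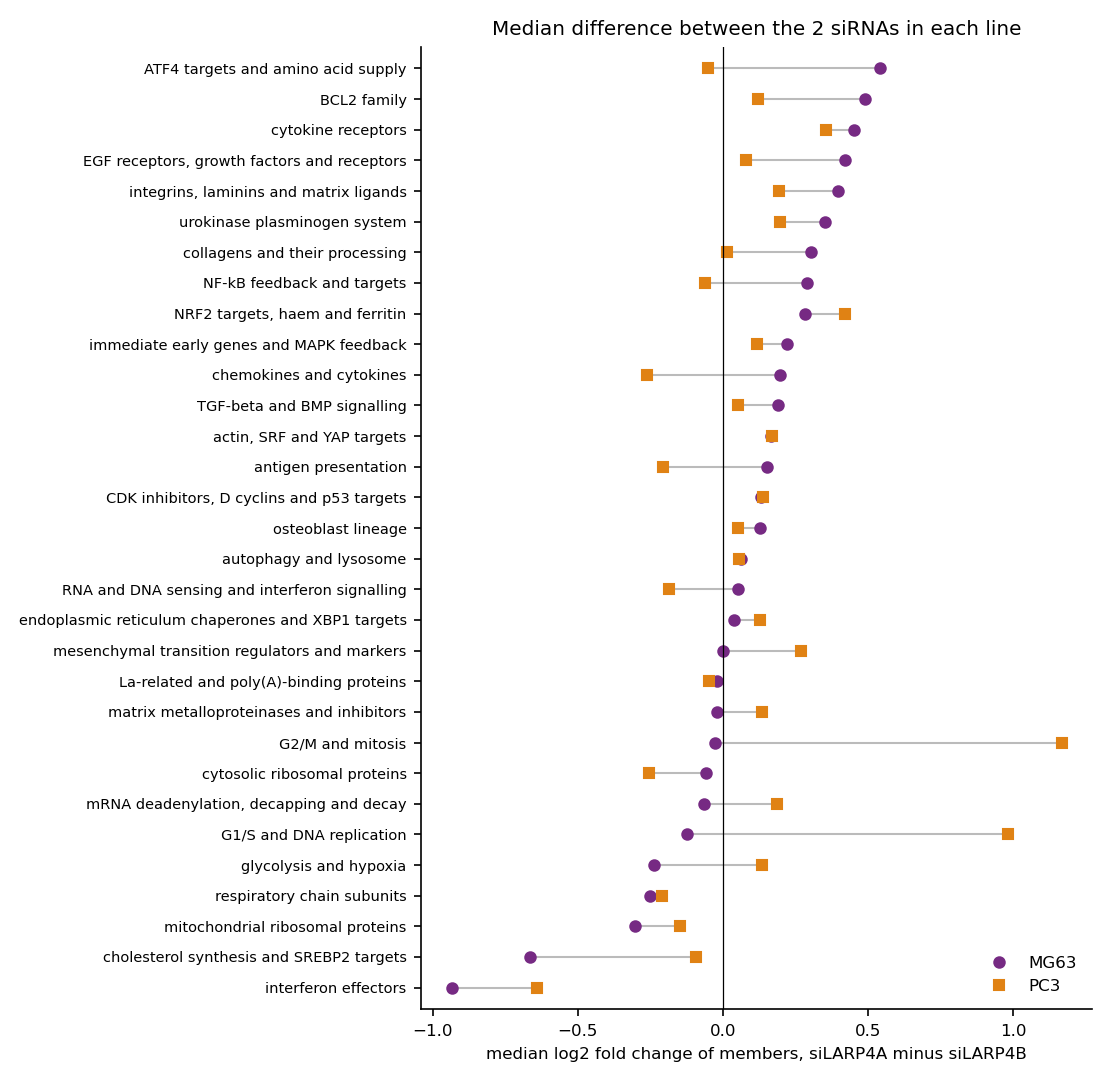
Median log2 fold change of the members of each list, siLARP4A minus siLARP4B, in MG63 (purple circles) and PC3 (orange squares), joined by a grey line. The lists furthest apart are G2/M and mitosis (-0.03 in MG63, 1.17 in PC3) and G1/S and DNA replication (-0.12 and 0.98), followed by the ATF4 targets (0.54 and -0.05) and cholesterol synthesis (-0.67 and -0.09).

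Single genes differed in how they compared between lines. Of the genes with large differences in MG63, several kept their direction in PC3. Their log2 values in PC3 were 1.85 for MKNK2, 2.98 for TLNRD1, 2.60 for HIPK3, 2.74 for DPYSL3 and 1.85 for GALNT7. They were -1.47 for HMOX1, -1.89 for TMED5 and -1.53 for OSTM1. ADGRG1 (log2 -0.10, adjusted p = 0.26) and FGF7 (log2 0.40, adjusted p = 0.69) were not called in PC3. ASNS in PC3 stood at 28.3 and 27.8 FPKM against 35.8 and 35.2, the reverse of MG63 (interaction 1.49 ± 0.10 SE, adjusted p = 6.9e-08). KCNN4 was also reversed, at 21.8 and 25.5 FPKM in PC3 siLARP4A and 55.6 and 58.1 in PC3 siLARP4B (interaction 2.96 ± 0.14 SE, adjusted p = 3.2e-09). ISG15 kept its direction in PC3, at 59.1 and 63.7 against 144 and 150 FPKM (log2 -1.24). Its difference was larger in MG63 (interaction -0.46 ± 0.11 SE, adjusted p = 0.0048).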

How the data were processed

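RNA-seq libraries of poly(A) RNA were made from 2 biological replicates per line and siRNA, per the study's design text. The submitters' processing notes name FastQC, HISAT2, featureCounts, edgeR and hg38; versions, annotation and the strand setting are not given in the sources used here. Each deposited table holds fragment counts per transcript model, FPM (fragments scaled to the library total) and FPKM, all made by the authors. A fragment shared by models is counted in each, so deposited FPM sum to 3198732 to 3448919, and FPM and FPKM followed from the deposited counts within 0.1%. Of 28163 symbols, 1744 had models at several loci and their values are uncertain.

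Counts of all 12 libraries (16950119 to 24864977 fragments) were fitted together in edgeR 4.0.16 (R 4.3.3), with 1 mean per group, TMM scaling and edgeR's filter on low counts. Quasi-likelihood F-tests were two-sided, with Benjamini-Hochberg adjustment over the 16066 genes and a threshold of 0.05. Contrasts were siLARP4A minus siLARP4B in MG63 and in PC3, their difference, and each siRNA against siControl in MG63. SE is the log2 difference over the square root of F. The biological coefficient of variation was 5.47%. The script was tested on simulated data. With 2 against 2 libraries an exact permutation test cannot go below p = 0.3333, so none was used.

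Genes named are LARP4 and LARP4B; the 12 highest and 12 lowest differences at 1 locus, with a model of at least 300 bases, at least 5 FPKM in a group and no overlap of groups; 5 abundant genes in each direction; the 4 largest of each list at 1 FPKM or more; opposite responses against control; the 6 largest differences between lines in each direction among genes called in both tests with at least 5 FPKM in an MG63 siRNA group; and members needed for contrast. The members and lists were chosen with earlier results of these data known. Alternatives were the 4 libraries alone, DESeq2 1.42.0 (size factors or Wald test), limma 3.58.1 on log2(FPKM + 1) or log2(FPKM + 0.1), other filters, the longest model, symbols at several loci left out, equal depth, a replicate block, a deduplicated table of 1 PC3 siControl library, and each replicate left out. Promoters are 250 bases before to 50 after the start, from RefSeq. Some named genes are not reported here.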

Additional observations from a re-analysis of the deposited data

Results flagged for a closer look

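The difference between siLARP4A and siLARP4B differed between the lines by the interaction test for 5647 genes: it was higher in MG63 than in PC3 for 2569 and lower for 3078. Among the named genes of the pathways, the interaction was 1.97 for CHAC1, 1.49 for ASNS and 0.80 for STC2, and -0.77 for MSMO1, -0.68 for NSDHL and -0.93 for HSD17B7 (log2 scale). KCNN4 had an interaction of 2.96, with at least 5 FPKM in a siRNA group of each line.

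The genes that follow were named for the highest or lowest interaction among genes called in both tests with at least 5 FPKM in an MG63 siRNA group; genes below that level, such as ABCC3 (3.36) and GDF15 (3.30), also had large values. SSC5D (2.91) stood at 6.62 and 6.41 FPKM in MG63 siLARP4A, 3.32 and 2.52 in MG63 siLARP4B, and under 1 FPKM in PC3. FOXC2 (2.59) was likewise under 1 FPKM in PC3. XAF1 (5.28) is listed at 0 in both PC3 siLARP4A libraries, and LINGO1 (-4.11) in both PC3 siLARP4B libraries. ADAMTS19 (-5.01) is listed at 0 in 3 of the 4 PC3 siRNA libraries. The fitted values of XAF1, LINGO1 and ADAMTS19 depend on the prior count and are no bound. IFI27 (2.91) and LY6E (-2.15) have models at 2 loci each, and LY6E stood at 17.2 and 7.06 FPKM in the MG63 siLARP4B libraries. RN7SL3 (3.68), a small RNA gene with a model of 299 bases, stood at 5.17 and 18.9 FPKM in the MG63 siLARP4A libraries. It stood at 1.54 and 0.709 in MG63 siLARP4B. These values rest on 27 and 105 fragments against 9 and 4. SNORD74 (-4.13) and SNORD28 (-2.25) are small nucleolar RNAs within host genes, with models of 72 and 75 bases. Their values rest on few fragments. In MG63, SNORD74 had 2 and 3 fragments in siLARP4A and 18 and 9 in siLARP4B. SNORD28 had 6 and 4 in siLARP4A and 18 and 20 in siLARP4B.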

How the results depend on the processing

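The replicate numbers gave no pairing of the MG63 knockdowns: deviations of same-numbered siLARP4A and siLARP4B libraries correlated at 0.0434 over 9459 genes. Across lines the correlation was -0.333 for MG63 siLARP4B with PC3 siLARP4A. It was 0.174 for MG63 siLARP4A with PC3 siLARP4A. These groups enter the interaction, and the reason was not tested. With a replicate block there were 3187 genes higher in MG63 siLARP4A than siLARP4B and 3307 genes lower in MG63 siLARP4A than siLARP4B. Without the block the former (3272) numbered 2609 to 2871 with a replicate left out and 2222 to 3458 under the other alternatives, and the latter (3399) numbered 2530 to 2893 and 2308 to 3478. DESeq2's Wald test gave 2552 and 2743. Genes at least 2-fold higher numbered 99 at a mean of at least 5 FPKM and 92 in limma on log2(FPKM + 1), and those at least 2-fold lower 60 and 73. Interferon effectors lower numbered 22 at that FPKM minimum, which 26 of the 40 reach. Under every alternative the cholesterol, ATF4, integrin, collagen, respiratory chain and mitochondrial ribosome counts stayed within 1.5 times their values. Of 156 named genes none changed direction between the knockdowns, 143 kept the call in every alternative that tested them, and 13 lost it in at least 1. Between lines, 2 genes changed sign in limma on log2(FPKM + 1), XAF1 to -0.14 and LINGO1 to 0.36, and 9 of 12 lost the call in at least 1 alternative; the cause was not tested. NF-kB targets higher numbered 6 (of 12 members that reach it) and osteoblast genes higher 2 (of 7) at a mean of at least 5 FPKM. With 2 libraries a group, the spread of a single gene rests on the trend over all genes.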
